A study of Mus musculus with 28 samples.

Results

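The genes described here are 10 genes of sodium uptake and corticosteroid response in the mouse kidney: the epithelial sodium channel subunits Scnn1a, Scnn1b and Scnn1g, the steroid receptors Nr3c1 and Nr3c2, the cortisol and corticosterone inactivating enzyme Hsd11b2, and the hormone-induced genes Sgk1, Tsc22d3, Fkbp5 and Zbtb16. They were taken from the count table by matching its Ensembl gene IDs to these mouse symbols. All 10 were found among the 56748 genes of the table, and all 10 passed the filter on low counts, as did 17573 genes in all. The study compared whole kidneys of mice with 3 forms of aquaporin-3 (Aqp3), a water and glycerol channel of collecting duct principal cells. Form Q mimics the acetylated lysine, form R mimics the deacetylated lysine, and WT is wild type. Polyadenylated RNA was sequenced from 5 male Q, 5 male R, 5 male WT, 5 female Q, 3 female R and 5 female WT libraries, 28 in all. No group had been treated, and all kidneys had been removed in the light phase, 2 to 5 h after lights on. The labels give no age, strain or batch and do not say that each library was a separate animal, so the p-values measure the spread between libraries, which may in part be technical. The counts do not show the edited codon, and the genotypes were therefore taken from the labels.

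The epithelial sodium channel, ENaC, lets sodium enter the cells of the aldosterone-sensitive distal nephron from the urine. Aldosterone acts there through the mineralocorticoid receptor, encoded by Nr3c2, which also binds the glucocorticoids of the blood, and the enzyme encoded by Hsd11b2 inactivates glucocorticoids in these cells so that aldosterone can act. The glucocorticoid receptor, encoded by Nr3c1, is present in most cells. Both receptors are transcription factors. The kinase SGK1 keeps ENaC at the cell surface by inhibiting the ubiquitin ligase NEDD4-2, Tsc22d3 encodes the protein GILZ, Fkbp5 encodes a chaperone partner that lowers the receptor's affinity for hormone, and Zbtb16 encodes the transcription factor PLZF. All 4 are widely used as readouts of corticosteroid action.

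Promoter windows of 300 bases, 250 before and 50 after an annotated start site, were taken from RefSeq on build GRCm38.p6 and searched for 6 members, Nr3c2 and the 5 whose windows are printed. Windows of Scnn1a, Nr3c1, Hsd11b2 and Zbtb16 were not analysed here. The printed windows are shown because receptor dimers bind an inverted repeat, AGAACA and TGTTCT with 3 bases between them, and because single copies of its arms occur more widely. Capitals mark TGTTCT or its reverse complement AGAACA on either strand.
Sgk1, chr10:21993640-21993939, plus strand: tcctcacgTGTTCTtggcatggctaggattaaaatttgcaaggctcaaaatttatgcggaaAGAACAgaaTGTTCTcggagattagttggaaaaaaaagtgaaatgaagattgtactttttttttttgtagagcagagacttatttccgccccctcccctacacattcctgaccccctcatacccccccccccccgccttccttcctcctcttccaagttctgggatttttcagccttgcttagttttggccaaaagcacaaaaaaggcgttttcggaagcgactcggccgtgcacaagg
Tsc22d3, chrX:140600473-140600772, minus strand: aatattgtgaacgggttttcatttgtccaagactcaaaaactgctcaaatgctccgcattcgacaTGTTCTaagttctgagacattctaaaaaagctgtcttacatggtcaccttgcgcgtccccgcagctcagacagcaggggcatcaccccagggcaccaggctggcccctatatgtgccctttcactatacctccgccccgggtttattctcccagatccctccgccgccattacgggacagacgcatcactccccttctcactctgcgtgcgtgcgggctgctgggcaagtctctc
Fkbp5, chr17:28486100-28486399, minus strand: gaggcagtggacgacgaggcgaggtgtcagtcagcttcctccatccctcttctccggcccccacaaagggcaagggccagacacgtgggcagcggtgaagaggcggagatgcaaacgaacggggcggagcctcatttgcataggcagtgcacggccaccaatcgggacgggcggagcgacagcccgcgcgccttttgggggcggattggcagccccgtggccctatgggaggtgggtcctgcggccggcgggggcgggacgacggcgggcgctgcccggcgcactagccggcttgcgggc
Scnn1g, chr7:121734229-121734528, plus strand: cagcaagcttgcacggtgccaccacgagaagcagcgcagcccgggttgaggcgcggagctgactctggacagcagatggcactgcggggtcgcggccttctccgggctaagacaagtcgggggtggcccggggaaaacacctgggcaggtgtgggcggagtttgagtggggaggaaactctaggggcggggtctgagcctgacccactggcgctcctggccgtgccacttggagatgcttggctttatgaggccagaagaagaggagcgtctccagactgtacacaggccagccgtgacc
Scnn1b, chr7:121864788-121865087, plus strand: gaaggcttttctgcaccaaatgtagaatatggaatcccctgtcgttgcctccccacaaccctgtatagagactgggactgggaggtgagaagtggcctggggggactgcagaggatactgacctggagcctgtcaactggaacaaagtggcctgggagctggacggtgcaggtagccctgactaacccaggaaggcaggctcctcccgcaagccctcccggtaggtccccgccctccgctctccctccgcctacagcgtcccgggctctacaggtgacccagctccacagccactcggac
The complete inverted repeat was found in 3 of 32851 mouse promoter windows, or 0.00913%, and 1 of these is the Sgk1 window printed. There it begins 189 bases before the start site of that window, which is 1 of 6 alternative starts of Sgk1. A single arm was found in 19% of all windows and in 4 of the 13 windows of the 6 members searched, 3 of them among the 6 alternative starts of Sgk1 and 1 among the 3 of Tsc22d3. The windows of Fkbp5, Scnn1g, Scnn1b and Nr3c2 hold neither, which says only that these letters are not in those windows. Scnn1g and Scnn1b lie on the same strand of chromosome 7 with starts 130.6 kb apart. The matches are descriptions of sequence, and no binding was measured.

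Library totals ranged between 14825417 and 21403804 assigned fragments, and the smallest count of any member in any library was 21, for Zbtb16. Male Q replicate 4 and female Q replicate 5 stood apart, with 7.74% and 3.94% of counts from mitochondrial genes against 9.56% to 12.1% in the other 26 libraries. Female WT replicate 2 had an Xist level of 0.515 CPM (counts scaled to a common library total), where the remaining 12 libraries of females held 214 to 435 CPM, and its summed Y-linked level was 0.468 CPM. Tsc22d3 is on the X chromosome, and its level in that library, 23.8 CPM, lay inside the range of the other female WT libraries. For some results that rest on these 3 libraries, values with and without them are given. Because whole kidneys were sequenced, fewer cells of a type and less RNA per cell cannot be told apart.

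All 10 members were present in every library. Levels were compared between genes as CPM per kilobase of exon. In male WT kidneys Hsd11b2 was the most abundant at 65.1 ± 7.14 CPM per kilobase (SD, n = 5), followed by Scnn1a at 22.2 ± 2.28 and Scnn1b at 15.6 ± 2.36. Nr3c1, Scnn1g, Sgk1, Fkbp5 and Tsc22d3 came next with means between 7.29 and 10.4 CPM per kilobase, and neighbours in this stretch did not differ beyond their SDs. Nr3c2 followed at 2.04 ± 0.144 and Zbtb16 was lowest at 0.513 ± 0.211. In female WT kidneys the order began in the same way, with Hsd11b2 at 81.2 ± 3.77, Scnn1a at 27.2 ± 2.02 and Scnn1b at 20.6 ± 3.01 CPM per kilobase (SD, n = 5). Fkbp5 ranked ninth of the members in female WT kidneys, at 2.49 ± 0.116 CPM per kilobase, below Nr3c2 at 2.95 ± 0.486, whereas in male WT kidneys it ranked seventh at 8.36 ± 3.50. The 3 ENaC subunits kept the order Scnn1a, Scnn1b, Scnn1g in both sexes.

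**Figure D1:**
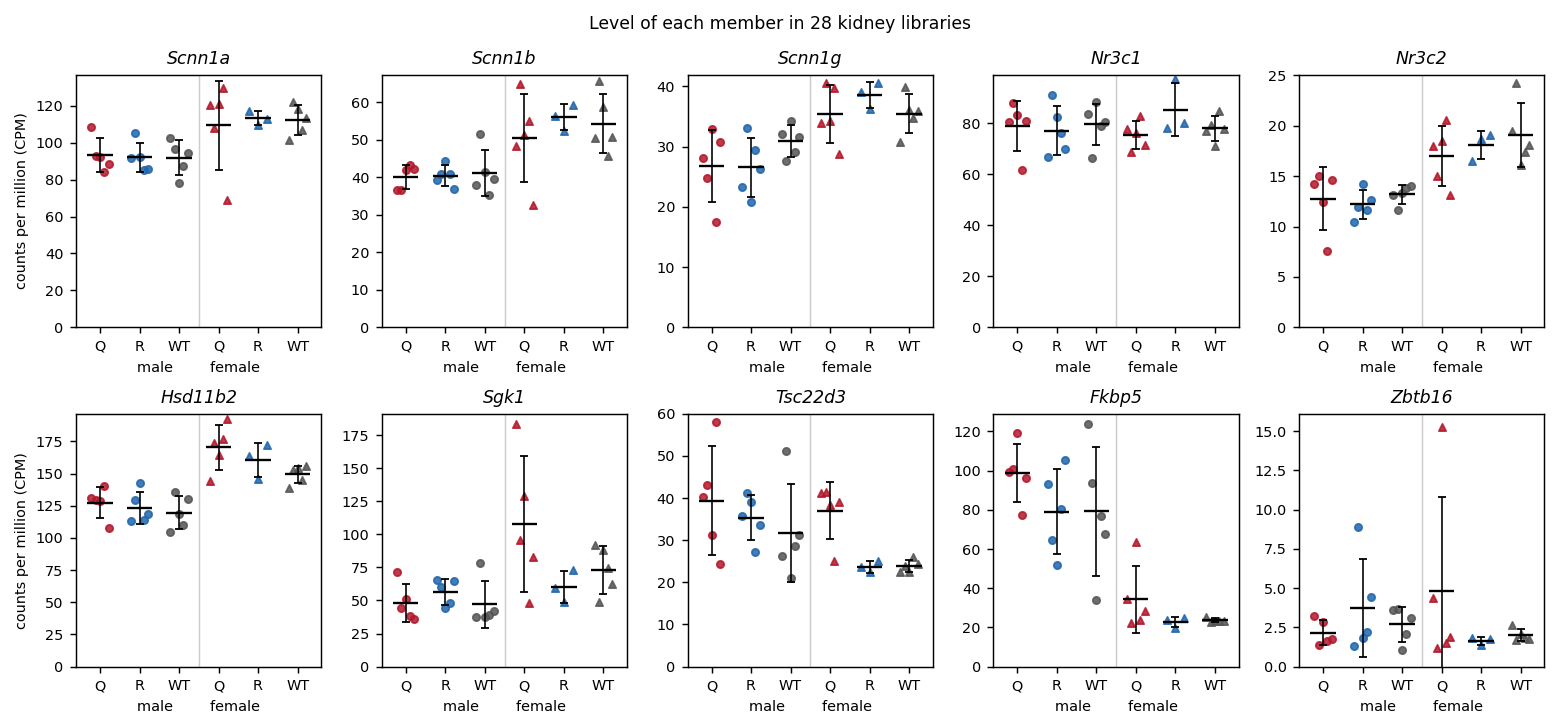
CPM of each of the 10 genes in the 28 libraries, 1 point per library, with the group mean (long bar) and SD (whiskers, those of Zbtb16 in female Q reaching below the axis). Fkbp5 lies between 33.9 and 124 CPM in the 15 male libraries and between 19.9 and 63.6 CPM in the 13 female libraries, and the points of Sgk1, Fkbp5 and Zbtb16 are widely spread in female Q.

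Male and female kidneys were compared as the mean of the differences within Q, R and WT. In this comparison 8 of the 10 members passed an adjusted p of 0.05 in edgeR's quasi-likelihood test, against 40.2% of all genes tested. Of these, 2 were higher in males (18.9% of all genes) and 6 were lower (21.3% of all genes). The median log2 fold change was -0.32 over the members and -0.04 over all genes. The members were chosen with earlier results of these data known, so such counts beside shares of all genes are descriptions only. Fkbp5 and Tsc22d3 were higher in males, Scnn1a, Scnn1b, Scnn1g, Nr3c2, Hsd11b2 and Sgk1 were lower, and Nr3c1 and Zbtb16 were not called.

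The 3 channel subunits were all lower in male kidneys. Scnn1a, whose alpha subunit is required for a conducting channel, had a lowest, median and highest level of 78.2, 92.4 and 108 CPM in the 15 male libraries, against 68.7, 113 and 129.8 CPM in the 13 female libraries. The sexes overlapped, and the lowest female value was that of female Q replicate 5, one of the libraries that stood apart. The log2 fold change of Scnn1a, male over female, was -0.27 ± 0.07 (SE), with an edgeR adjusted p of 0.00216.

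Scnn1b, the beta subunit, ran at 35.2, 40.7 and 51.4 CPM (lowest, median, highest) in male libraries and at 32.7, 52.3 and 65.7 CPM in female libraries. Its log2 fold change was -0.40 ± 0.08, with an edgeR adjusted p of 9.03e-05. The gamma subunit Scnn1g ran at 17.5, 29.1 and 34.3 CPM in male libraries and at 28.8, 36.1 and 40.6 CPM in female libraries. The fitted log2 fold change was -0.38 ± 0.08, with an edgeR adjusted p of 3.04e-04. For both subunits the ranges of the sexes overlapped over all genotypes. In R kidneys, with 3 female libraries, the male and female libraries did not overlap for any of the 3 subunits, as held for 23.9% of all genes. Within Q and within WT they overlapped for all 3 subunits.

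The mineralocorticoid receptor and its guarding enzyme were lower in males too, and the glucocorticoid receptor was not called. Nr3c2 had 13.2, 11.6, 13.4, 13.8 and 13.99 CPM in male WT libraries, against 19.5, 24.2, 16.1, 17.4 and 18.1 CPM in female WT libraries. Every male WT library lay below every female WT library, and the sexes did not overlap within WT for 17.1% of all genes. Over the 3 genotypes its log2 fold change, male over female, was -0.51 ± 0.09, with an edgeR adjusted p of 2.62e-05. In the annotation used for lengths, 3.82% of the exon bases of Nr3c2 lie opposite Gm10649 on the other strand, and the counting used no strand.

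Hsd11b2 had 104, 136, 119, 109.95 and 129.98 CPM in male WT libraries, against 139, 153, 154, 145 and 156 CPM in female WT libraries. The male and female libraries of WT did not overlap (17.1% of all genes), and the same held within Q (13.4%) and within R (23.9%). The log2 fold change over the genotypes was -0.37 ± 0.06, with an edgeR adjusted p of 2.69e-06. Nr3c1 ran at 61.9, 80.8 and 91.0 CPM (lowest, median, highest) in male libraries and at 68.8, 77.9 and 97.4 CPM in female libraries. Its log2 fold change of -0.02 had a 95% interval from -0.14 to 0.11, and its edgeR adjusted p was 0.853.

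Fkbp5 showed the largest sex difference of the 10 members. It had 124, 93.7, 33.9, 77.1 and 67.5 CPM in male WT libraries, against 25.5, 22.7, 23.5, 23.1 and 23.2 CPM in female WT libraries. The male WT libraries spread widely and the female ones tightly. The lowest male WT value stood above the highest female WT value, and the sexes did not overlap within WT for 17.1% of all genes. Over the 3 genotypes the male level was 3.21 times the female level, a log2 fold change of 1.68 ± 0.17, with an edgeR adjusted p of 9.69e-09. The libraries of the 15 males and the 13 females overlapped. Male WT replicate 3, at 33.9 CPM, lay below female Q replicates 1 and 3, at 34.6 and 63.6 CPM. The lowest male R library, at 51.9 CPM, also lay below female Q replicate 3.

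Sgk1 went the other way. It ran at 36.2, 44.5 and 78.6 CPM (lowest, median, highest) in male libraries and at 48.2, 74.4 and 184 CPM in female libraries, so the sexes overlapped. The fitted log2 fold change was -0.63 ± 0.17, with an edgeR adjusted p of 0.00330. The difference was -1.16 ± 0.28 within Q, -0.10 ± 0.31 within R and -0.64 ± 0.27 within WT, and of these only the value within Q was called, with an edgeR adjusted p of 0.00283. Without female Q replicates 1 and 3, the libraries with the most Sgk1, the value within Q was -0.64, with an edgeR adjusted p of 0.0945.

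Tsc22d3 ran at 20.9, 33.6 and 58.1 CPM (lowest, median, highest) in male libraries and at 22.4, 25.1 and 41.4 CPM in female libraries. Its log2 fold change was 0.36 ± 0.12, with an edgeR adjusted p of 0.0169, and the adjusted p was 0.0628 when no filter on low counts was applied. Zbtb16 ran at 1.07, 2.19 and 8.91 CPM in male libraries and at 1.17, 1.81 and 15.3 CPM in female libraries. The fitted log2 fold change of 0.16 had a 95% interval from -0.57 to 0.88 and was not called, with an edgeR adjusted p of 0.756. Without female Q replicates 1 and 3 it was 0.73, with an edgeR adjusted p of 0.0257, but these libraries hold the highest Zbtb16 of their group, so that leaving them out raises the male over female value by construction. The hormone-induced members thus did not share one direction between the sexes.

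**Figure D2:**
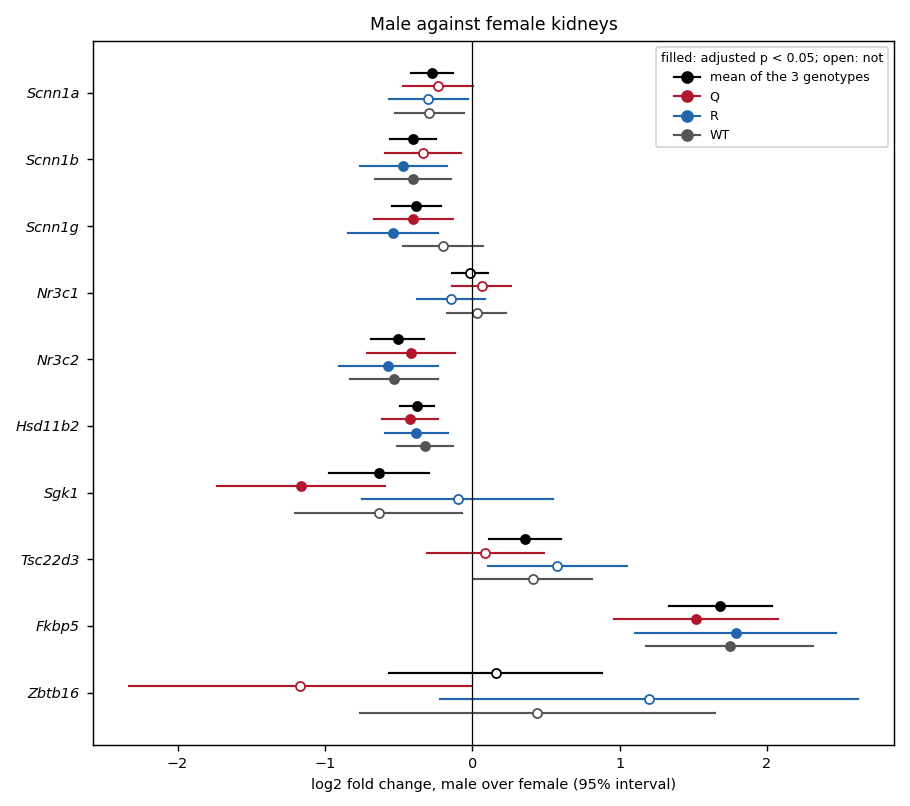
Log2 fold change, male over female, of each of the 10 genes, with 95% intervals, for the mean of the 3 genotypes and within Q, R and WT. Filled points passed an edgeR adjusted p of 0.05. Fkbp5 lies to the right in all 4 comparisons, and Nr3c2 and Hsd11b2 lie to the left in all 4.

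Within single genotypes fewer members passed. Within Q kidneys 5 members were called (23.1% of all genes): Scnn1g, Nr3c2, Hsd11b2 and Sgk1 were lower in males and Fkbp5 was higher. Within R kidneys 5 were called (14.1% of all genes), with Scnn1b, Scnn1g, Nr3c2 and Hsd11b2 lower and Fkbp5 higher. Within WT kidneys 4 were called (16.5% of all genes), with Scnn1b, Nr3c2 and Hsd11b2 lower and Fkbp5 higher. Without female WT replicate 2, the library low in Xist, 2 members were called within WT, Nr3c2 then having an adjusted p of 0.0557 and Scnn1b one of 0.115. Without male Q replicate 4 and female Q replicate 5, 7 members were called within Q, and without female Q replicates 1 and 3, 2 were. The libraries of the sexes did not overlap for 2 members within Q (13.4% of all genes), 7 within R (23.9%) and 3 within WT (17.1%). Over all 15 male and 13 female libraries no member was free of overlap, as 5.14% of all genes were. Nr3c2, Hsd11b2 and Fkbp5 were called within each genotype. The interaction tests below set the sex difference within Q and within R against that within WT, and no member passed. The sex difference within Q was not tested against that within R.

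Genes that act around the channel and the receptors were followed as 4 lists, whose counts stand against 18.9% of all genes higher and 21.3% lower in males. Of 13 genes that process ENaC or control its turnover, 3 were higher and 4 lower in males, with a median log2 fold change of -0.13 against -0.04 over all genes. St14, which encodes the protease matriptase, averaged 71.8 CPM in males and 108 CPM in females, and its log2 fold change was -0.59 ± 0.06. Usp2, which encodes a deubiquitinase that acts on ENaC in cell culture, averaged 110.4 CPM in males and 68.6 CPM in females (0.71 ± 0.10). Usp10, another deubiquitinase, and Furin, a protease that cleaves the alpha and gamma subunits, were higher in males by 0.43 ± 0.07 and 0.33 ± 0.06 on the log2 scale. The edgeR adjusted p of these 4 genes was at most 3.78e-05. Nedd4l, which encodes NEDD4-2, was not called, with a log2 fold change of -0.12 and an edgeR adjusted p of 0.162.

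Of 14 transport partners of the distal nephron, 2 were higher and 5 lower in males, with a median of -0.13. The potassium channel gene Kcnj1, which encodes ROMK, averaged 228 CPM in males and 317 CPM in females, and the sodium chloride cotransporter gene Slc12a3 averaged 688 CPM in males and 962 CPM in females. Their log2 fold changes were -0.48 ± 0.06 and -0.50 ± 0.09. Klhl3 and Cul3 encode parts of the ubiquitin ligase that removes WNK kinases, and their log2 fold changes had opposite signs, at -0.45 ± 0.08 and 0.28 ± 0.05. The largest edgeR adjusted p of these 4 was 1.23e-04.

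Of 16 other glucocorticoid-induced genes, 2 were higher and 4 lower in males, and 10 were not called, with a median of -0.06. The transcription factor gene Cebpd averaged 7.78 CPM in males and 26.4 CPM in females, a log2 fold change of -1.70 ± 0.20. Sesn1 and the metallothionein gene Mt1 were lower in males, at -0.32 ± 0.07 and -0.57 ± 0.13, and Klf9 was higher, at 0.33 ± 0.07. The largest edgeR adjusted p of these 4 was 7.86e-04.

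Of 12 genes of corticosteroid metabolism, receptor chaperones and coactivators, 9 were higher and 1 lower in males, with a median of 0.43. Hsd11b1, whose enzyme regenerates active glucocorticoid and so works opposite to that of Hsd11b2, averaged 192 CPM in males and 66.8 CPM in females (1.55 ± 0.10). Srd5a1, a steroid reductase gene, averaged 26.3 CPM in males and 12.0 CPM in females (1.14 ± 0.07). The chaperone gene Hsp90ab1 was higher by 0.63 ± 0.08, and Akr1c18, a hydroxysteroid dehydrogenase gene, was the lower one, at 23.5 CPM in males and 211 CPM in females (-3.02 ± 0.36). The edgeR adjusted p of these 4 was at most 4.36e-07.

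Markers of kidney cell types also differed between the sexes. The counts below are of markers called at an edgeR adjusted p under 0.05, against 18.9% of all genes higher and 21.3% lower in males. All 8 intercalated cell markers were lower in males, with a summed level of 229 to 343 CPM in male libraries against 333 to 522 CPM in female libraries. Of 7 distal convoluted tubule markers 5 were lower, with sums of 1142 to 1775 CPM in males and 1311 to 2267 CPM in females. Of 5 thick ascending limb markers 4 were lower and 1 higher, with sums of 2712 to 4552 CPM in males and 4284 to 5931 CPM in females, and all 5 podocyte markers were lower, with sums of 201 to 308 CPM in males and 269 to 379 CPM in females. Of 8 tested principal cell markers 3 were lower, with sums of 486 to 849 CPM in males and 492.8 to 983 CPM in females, and Aqp2 and Aqp3 were not called, at log2 fold changes of -0.04 and -0.03. The 8 proximal tubule markers were split into 3 higher and 3 lower, with sums of 12030 to 14170 CPM in males and 8616 to 12770 CPM in females. The part of these cell types in the sex differences of the 10 members was not tested. Of 8 adrenal cortex markers 1 passed the filter on low counts, Star, at 1.87 to 3.82 CPM, and the other 7 had between 0 counts, for Cyp11b2, and 63 counts, for Mc2r, over all 28 libraries together.

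**Figure D3:**
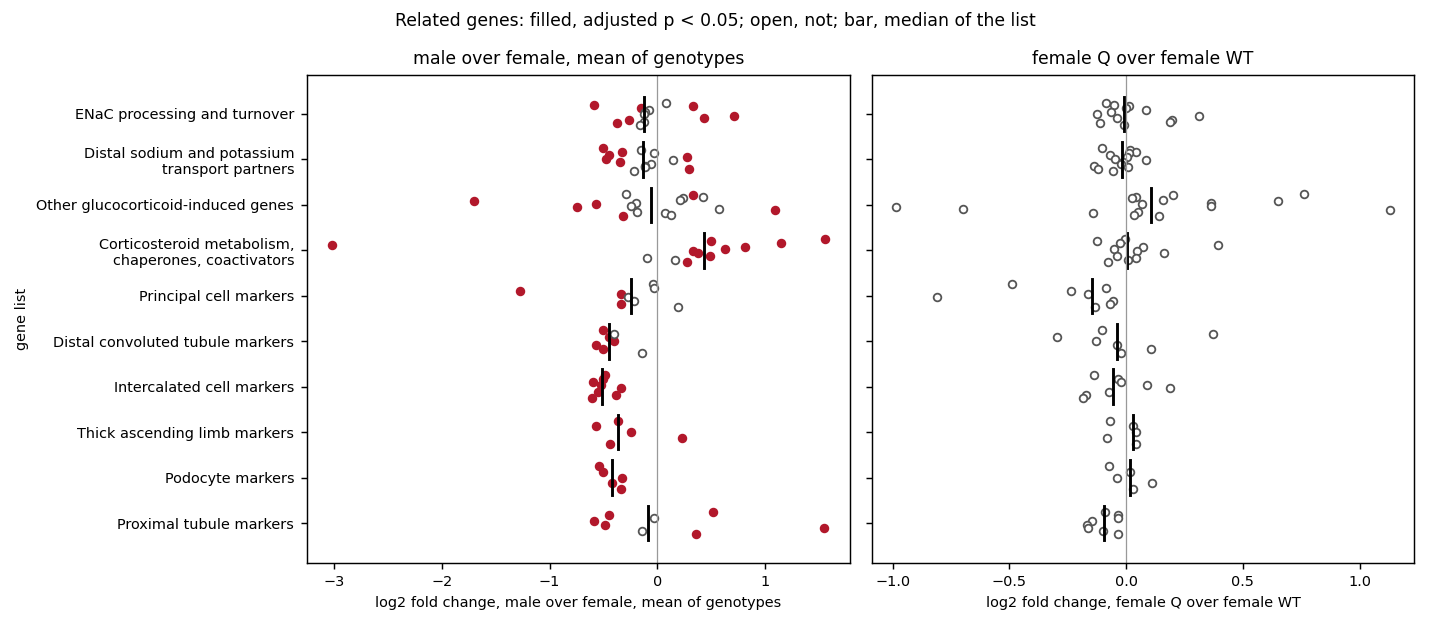
Log2 fold changes of the genes of 4 related lists and 6 cell type marker lists, male over female (left) and female Q over female WT (right), with each list's median as a bar and filled points for an edgeR adjusted p under 0.05. On the left the genes of corticosteroid metabolism lie mostly to the right of 0 and the intercalated cell markers to the left, and on the right no point is filled.

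The form of Aqp3 was the study's main question. In none of the 9 genotype comparisons did a member pass an adjusted p of 0.05 in edgeR (0 of 10 in each, and 0% of the 17573 genes), nor with DESeq2's Wald test or with voom and sample quality weights. At an unadjusted p under 0.05 the count of members was 4 in female Q against WT (2.94% of all genes), 3 in female Q against R (3.03%), 3 in Q against WT over both sexes (4.72%) and 2 in Q against R over both sexes (3.93%). It was 0 in male Q against WT (5.1%), male Q against R (4.1%), male R against WT (2.13%), female R against WT (1.92%) and R against WT over both sexes (1.34%). The comparisons with Q in females share the female Q libraries, so their counts are not separate evidence. Because the members were chosen with earlier results of these data known, these counts beside the shares of all genes are descriptions only.

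**Figure D4:**
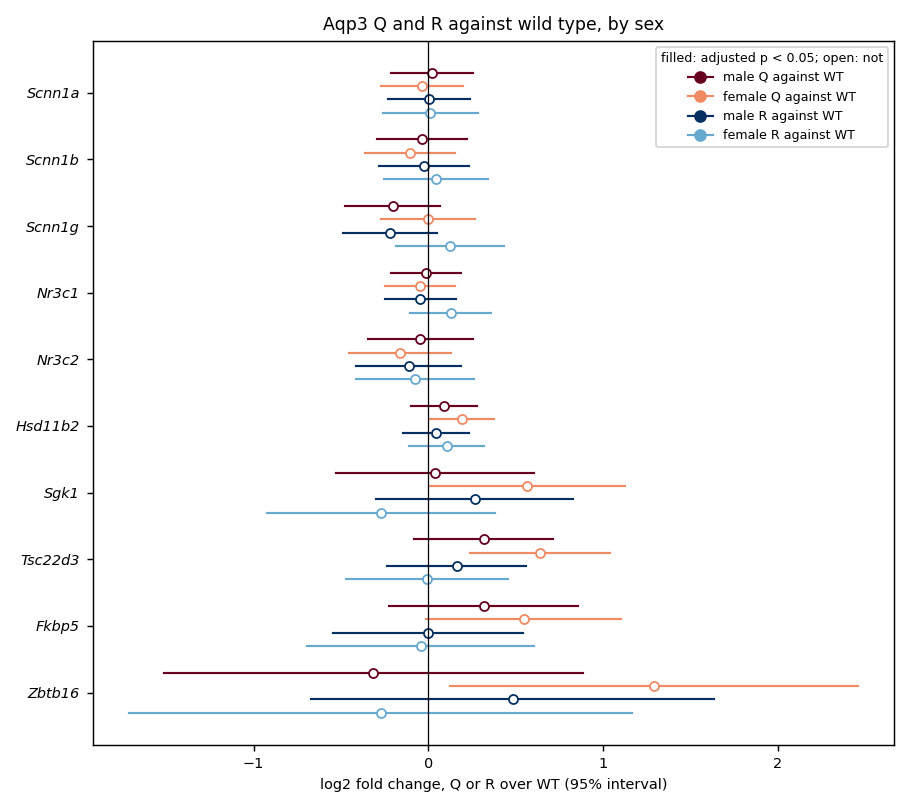
Log2 fold change over WT, with 95% intervals, of each of the 10 genes in male Q, female Q, male R and female R. All points are open, as no gene passed an edgeR adjusted p of 0.05. The points of female Q for Sgk1, Tsc22d3, Fkbp5 and Zbtb16 lie between 0.55 and 1.29.

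In female Q kidneys the 4 hormone-induced members had higher means than in female WT kidneys, without passing the test. Tsc22d3 had 41.1, 41.4, 38.4, 25.2 and 39.2 CPM in female Q libraries, against 22.5, 23.8, 22.5, 25.99 and 24.3 CPM in female WT libraries. The groups overlapped through female Q replicate 4 alone. The log2 fold change was 0.64 ± 0.20, with a 95% interval from 0.24 to 1.04, an unadjusted p of 0.00286 and an edgeR adjusted p of 1. It ranged between 0.60 and 0.75 when each library was left out in turn. Female R libraries had 23.5, 22.4 and 25.1 CPM of Tsc22d3, all below every female Q library, as held for 1.41% of all genes. The gap was narrow, with 25.1 CPM in the highest of 3 female R libraries against 25.2 CPM in female Q replicate 4.

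Sgk1 had 184, 95.5, 129, 48.2 and 82.9 CPM in female Q libraries, against 91.9, 48.6, 87.9, 74.4 and 62.2 CPM in female WT libraries. The highest 3 values were those of female Q, which also held the lowest. The log2 fold change was 0.56 ± 0.27, with an unadjusted p of 0.0485 and an edgeR adjusted p of 1. Fkbp5 had 34.6, 22.1, 63.6, 23.6 and 28.1 CPM in female Q libraries, against 25.5, 22.7, 23.5, 23.1 and 23.2 CPM in female WT libraries. Its log2 fold change was 0.55 ± 0.27, with an edgeR adjusted p of 1.

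Zbtb16 had 4.39, 1.17, 15.3, 1.47 and 1.90 CPM in female Q libraries, against 2.64, 1.69, 2.09, 1.81 and 1.76 CPM in female WT libraries. Replicate 3 carried most of the difference and replicates 2 and 4 lay below all female WT libraries. The fitted log2 fold change was 1.29 ± 0.57, with an edgeR adjusted p of 1. Without female Q replicates 1 and 3 the log2 fold changes were 0.05 for Sgk1, 0.06 for Fkbp5 and -0.39 for Zbtb16, so that of Zbtb16 changed sign, and that of Tsc22d3 was 0.57. These libraries were chosen after their values were seen as those highest in Sgk1, Fkbp5 and Zbtb16, which lowers the values of these genes by construction.

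Hsd11b2 had 144, 174, 165, 177 and 192 CPM in female Q libraries, against 139, 153, 154, 145 and 156 CPM in female WT libraries. Female Q replicates 2 to 5 lay above all those of WT. The highest, 192 CPM, was that of replicate 5, which stood apart by its mitochondrial share, and the fold change without it is not given here. The log2 fold change was 0.19 ± 0.09, with an unadjusted p of 0.0474 and an edgeR adjusted p of 1. The channel subunits and receptors differed less, with log2 fold changes of -0.04 for Scnn1a, -0.11 for Scnn1b, -0.003 for Scnn1g, -0.05 for Nr3c1 and -0.16 for Nr3c2, and all 5 intervals included 0. The 95% interval of Scnn1a ran from -0.27 to 0.20 and that of Scnn1g from -0.27 to 0.27. Female Q replicate 5, which stood apart, held the lowest female Q value of Scnn1a, 68.7 CPM, and of Scnn1b, 32.7 CPM. The median of Scnn1a was 120.7 CPM in female Q and 113.2 CPM in female WT. That of Scnn1b was 51.3 CPM in female Q and 50.6 CPM in female WT. The negative signs of these 2 genes may thus rest on that library, and their fold changes without it are not given here.

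In male kidneys the Q form gave the following. Tsc22d3 had 40.3, 43.1, 31.2, 58.1 and 24.3 CPM in male Q libraries, against 26.1, 51.3, 20.9, 28.7 and 31.2 CPM in male WT libraries, with wide overlap and a log2 fold change of 0.32 ± 0.19. The highest male Q value belonged to replicate 4, which stood apart by its mitochondrial share. Fkbp5 had 99.4, 101, 119, 77.5 and 96.2 CPM in male Q libraries, against the male WT values given above, and its log2 fold change was 0.32 ± 0.26. The edgeR adjusted p was 0.917 for both genes. The male log2 fold changes of Sgk1 and Zbtb16 were 0.04 ± 0.28 and -0.32 ± 0.58.

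Averaged over the sexes, Tsc22d3 was at 38.2 CPM in Q kidneys and 27.7 CPM in WT kidneys, a log2 fold change of 0.48 ± 0.14, with an unadjusted p of 0.00170 and an edgeR adjusted p of 0.920. Without male Q replicate 4 and female Q replicate 5 it was 0.38. Fkbp5 and Hsd11b2 had log2 fold changes of 0.43 ± 0.19 and 0.14 ± 0.07 in the same comparison, both with an edgeR adjusted p of 0.920.

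The R form gave no member an unadjusted p under 0.05 against WT in either sex. In male R kidneys the log2 fold changes ran from -0.22 for Scnn1g to 0.48 for Zbtb16, and in female R kidneys from -0.27 for Zbtb16 and Sgk1 to 0.13 for Nr3c1. Scnn1g had 23.3, 33.1, 20.7, 29.5 and 26.3 CPM in male R libraries, against 32.1, 27.6, 34.3, 29.1 and 31.6 CPM in male WT libraries. Its log2 fold change of -0.22 had a 95% interval from -0.49 to 0.05.

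Whether the Q or R form acted differently in the sexes was tested as an interaction, the male difference minus the female one. In both interactions 0 of 10 members passed in edgeR (0% of all genes), in DESeq2 and in voom, and 0 had an unadjusted p under 0.05, as 3.11% of all genes had for Q and 2.82% for R. The interaction with Q was -1.61 ± 0.81 for Zbtb16, -0.53 ± 0.39 for Sgk1, -0.32 ± 0.28 for Tsc22d3 and -0.23 ± 0.38 for Fkbp5, each with an edgeR adjusted p of 0.999. These intervals are wide, that of Zbtb16 running from -3.28 to 0.06, and the test therefore does not show that the sexes responded alike.

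The related lists gave no call in female Q against WT either. Of the 16 other glucocorticoid-induced genes 13 had a positive log2 fold change, with a median of 0.10 against -0.0045 over all genes, and 3 had an unadjusted p under 0.05 (2.94% of all genes), Per1 and Hif3a with a positive and Pdk4 with a negative change. Per1, a clock gene that glucocorticoids induce, had 34.1, 18.5, 33.7, 22.8 and 12.1 CPM in female Q libraries, against 15.7, 20.6, 10.7, 15.9 and 8.63 CPM in female WT libraries. Its highest values were in replicates 1 and 3, the female Q libraries with the most Sgk1 and Fkbp5, and its log2 fold change was 0.76 ± 0.30. Hif3a had a log2 fold change of 1.13 ± 0.51 at levels under 1 CPM, Cebpd one of 0.65 ± 0.32, and Pdk4, a glucocorticoid-induced kinase gene, one of -0.98 ± 0.45. All 4 had an edgeR adjusted p of 1.

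The other 3 lists had medians near that of all genes in female Q, and no member of them had an unadjusted p under 0.05. Those of lowest p among the ENaC regulators were Usp2 at 0.31 ± 0.17, Sgk3 at 0.20 ± 0.14, Cnksr3 at 0.19 ± 0.13 and Wnk1 at -0.11 ± 0.11. Among the transport partners they included Slc12a3 at -0.10, Fxyd2 at -0.12 and Klhl3 at -0.07. In the list of corticosteroid metabolism they were Ptges3 at 0.16, H6pd at -0.13, Akr1c18 at 0.39 and Ncor1 at -0.08. All of these had an edgeR adjusted p of 1.

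Libraries of the same sex and genotype were compared for members that deviated together. Correlations were taken over the 28 libraries on log2 CPM after removal of each group's mean, for 9 pairs of members, with permutation within groups and Benjamini-Hochberg adjustment over the 9. By Spearman's rho 3 pairs passed: Sgk1 with Zbtb16 (rho 0.62, permutation p 0.00194, adjusted 0.00873), Sgk1 with Fkbp5 (rho 0.62, permutation p 0.00130, adjusted 0.00873) and Fkbp5 with Zbtb16 (rho 0.60, permutation p 0.00951, adjusted 0.0285). In the 15 male libraries alone none of these pairs passed, with rho of 0.45, 0.49 and 0.36 and adjusted permutation p of 0.5, 0.5 and 0.533. In the 13 female libraries alone all 3 passed, with rho of 0.85, 0.84 and 0.97 and adjusted permutation p of 0.00504, 0.00598 and 0.00193, and the difference between the sexes was not tested. By Pearson's r none passed over the 28 libraries. The r of these 3 pairs was 0.54, 0.45 and 0.66, with adjusted permutation p of 0.0852, 0.129 and 0.0541. Without the 2 libraries farthest from the median of the first gene of each pair the r was 0.49, 0.43 and 0.32, so that of Fkbp5 with Zbtb16 rests in part on male WT replicate 3 and female Q replicate 3.

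Tsc22d3 passed with none of the 3 by rank over the 28 libraries. It had a rho of 0.34 with Sgk1, -0.08 with Fkbp5 and 0.13 with Zbtb16, and the adjusted permutation p was 0.187, 0.719 and 0.621. Its r with Sgk1 was 0.49 (permutation p 0.0228, adjusted 0.0852), and 0.39 without the 2 farthest libraries. Without male Q replicate 4 and female Q replicate 5 the pair of Sgk1 and Tsc22d3 passed by rank, with a rho of 0.51 and an adjusted permutation p of 0.0439. The channel subunits had a rho of 0.31 to 0.33 with each other, none passing. In females alone Scnn1b with Scnn1g passed with a rho of 0.87 and an adjusted permutation p of 0.00193, which was not repeated without female Q replicate 5. In males alone this pair had a rho of -0.07 (adjusted permutation p 0.808). Over both sexes without male Q replicate 4 and female Q replicate 5 its rho was 0.40 (adjusted permutation p 0.109). The r of Scnn1a with Scnn1b was 0.54 (permutation p 0.0971, adjusted 0.146) and 0.04 without female Q replicates 4 and 5, so it rests on those libraries. The r of Scnn1a with Scnn1g was 0.40 and that of Scnn1b with Scnn1g was 0.25, at adjusted permutation p of 0.0992 and 0.229, and without the 2 farthest libraries they were 0.25 and 0.01.

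**Figure D5:**
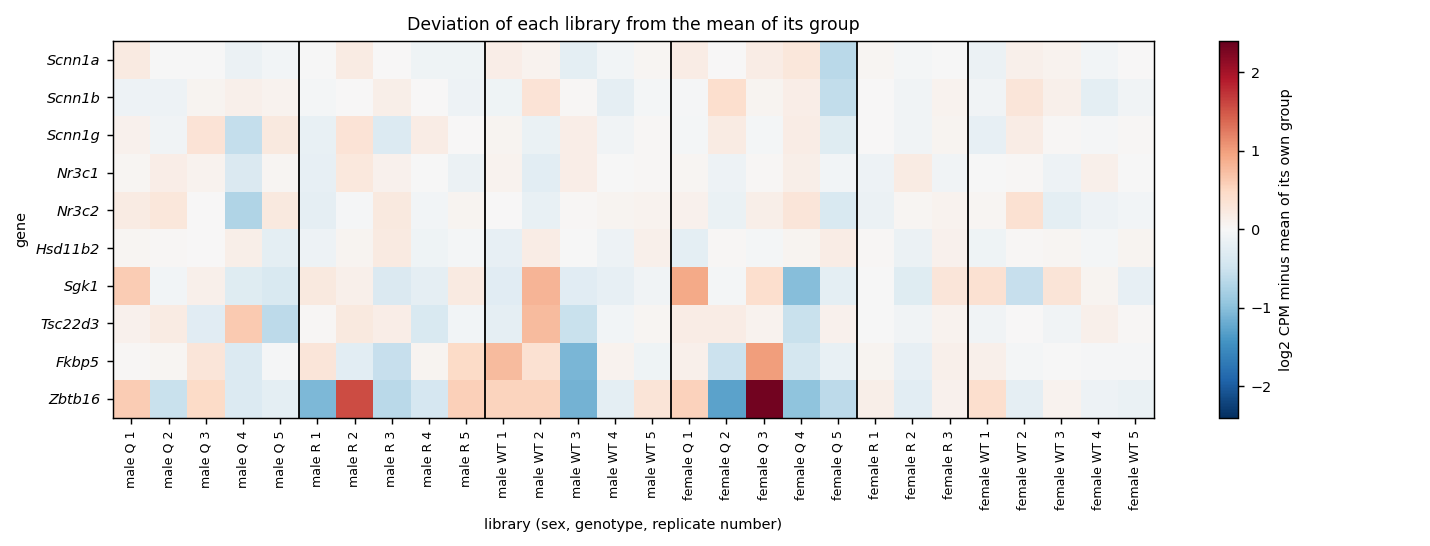
Deviation of each library from the mean of its own group, in log2 CPM, for the 10 genes (rows) in the 28 libraries (columns). Zbtb16 in female Q replicate 3 is the highest at 2.32. The libraries in which Sgk1, Fkbp5 and Zbtb16 are above their group mean together include male WT replicate 2, female WT replicate 1 and female Q replicates 1 and 3.

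The genes whose group-centred pattern was most like that of a member were sought among 12953 named genes, as a description over the 28 libraries. The ranking used Pearson's r, with Spearman's rho given beside it, and was not repeated without the libraries that stood apart. Fkbp5 was most like Osbpl9 (r 0.84, rho 0.83), Rnf149 (r 0.71, rho 0.72) and Map3k6 (r 0.71, rho 0.59). Zbtb16 was most like Zhx3 (r 0.78, rho 0.81), Spon1 (r 0.77, rho 0.83) and Map3k6 (r 0.77, rho 0.72). Sgk1 was most like Nkain1 (r 0.77, rho 0.76), Slc45a3 (r 0.73, rho 0.76) and P4ha1 (r 0.72, rho 0.68). Tsc22d3 was most like Hspb1 (r 0.84, rho 0.71), Creld2 (r 0.83, rho 0.65) and Dnajb2 (r 0.82, rho 0.67). Hspb1 and Dnajb2 encode chaperones of the heat shock families. Scnn1g was most like Slc35g1 (r 0.85, rho 0.71), Fads6 (r 0.84, rho 0.72) and Paxip1 (r 0.82, rho 0.68). The lists of Fkbp5 and Zbtb16 share Map3k6 and no other gene.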

How the data were processed

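Polyadenylated RNA of 28 kidney libraries was measured as raw counts of fragments per gene. The deposited counts had been made by the authors with featureCounts 2.0.1 on exons of Ensembl release 107 and GRCm39, with no strand or multi-mapping option, per the file headers. The submitters' processing notes also list Trim Galore 0.6.7, SAMtools 1.6, Subread 2.0.1 and DESeq2 1.38.3, and the aligner is not given in the sources used here. Without a multi-mapping option reads that fit several places are left out, and without strand an antisense gene can add counts.

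Libraries were grouped by their titles into 6 groups. Counts were scaled by TMM, filtered with filterByExpr, which kept 17573 of 56748 genes and 99.91% of counts, and fitted for all 28 libraries with edgeR 4.0.16's quasi-likelihood test in R 4.3.3 (robust, 22 residual degrees of freedom, square root of the common dispersion 0.176). Benjamini-Hochberg adjustment ran over all tested genes at 0.05 in each of 15 contrasts: 9 of genotype, 2 interactions and 4 of sex. CPM values use the TMM library sizes. Correlations used log2 CPM with a prior count of 2 and 100000 permutations (SciPy 1.17.1). Symbols came from Ensembl IDs (52073 matched), exon lengths and overlaps from GENCODE mouse release 21 matched by ID. The method was tested on simulated data.

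All 10 members were named. Of each related list up to 4 genes of lowest unadjusted p in a contrast were named, 1 of which is not reported here, and Nedd4l was added after its values were seen. For 5 members, the 3 genes most alike in pattern among those of at least 1 CPM were named. Members and lists were chosen with earlier results of these data known. Alternatives were DESeq2 1.42.0 size factors and its Wald test, no filter, a replicate block, a clock gene score as covariate, voom with quality weights in limma 3.58.1, and leaving out libraries. Replicate numbers did not pair libraries across groups. No 2 of the 378 library pairs held identical values.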

Additional observations from a re-analysis of the deposited data

Results flagged for a closer look

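Each member was screened for a library far from the rest of its group, in the 50 combinations of a member with a group of 5 libraries. The gap to the nearest library, as a share of the group's range, passed Dixon's 95% critical value in 5 of them, where chance gives about 1 in 20. Zbtb16 was at 15.3 CPM in female Q replicate 3, against 1.17 to 4.39 CPM in the other female Q libraries. Tsc22d3 was at 25.2 CPM in female Q replicate 4, against 38.4 to 41.4 CPM in the other female Q libraries, and it is the value that made female Q overlap with female WT. Sgk1 was at 78.6 CPM in male WT replicate 2, against 37.3 to 42.4 CPM in the other male WT libraries, and without that library the male against female difference within WT was -0.90 on the log2 scale with an edgeR adjusted p of 0.0209. Nr3c1 was at 61.9 CPM in male Q replicate 4, the male library low in mitochondrial counts, against 80.8 to 87.8 CPM in the other male Q libraries. Fkbp5 was at 25.5 CPM in female WT replicate 1, against 22.7 to 23.5 CPM in the other female WT libraries, a narrow group.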

How the results depend on the processing

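The 8 members called between males and females over the genotypes were called in each of the 28 fits that left out 1 library, and the count stayed at 8 in 6 of the 7 alternatives listed in the methods, the exception being no filter, where Tsc22d3 had an edgeR adjusted p of 0.0628. Leaving out 1 library at a time gave 2 to 5 members called between the sexes within WT (4 with all libraries; 2 without male WT replicate 1 or female WT replicate 2), 3 to 7 within Q (5; 3 without female Q replicate 4) and 1 to 5 within R (5; 2 without female R replicate 1 and 1 without female R replicate 3). Without male Q replicate 4 and female Q replicate 5 it was 5 within WT, 7 within Q and 6 within R. 1 alternative was chosen after seeing the data: without female Q replicates 1 and 3, which hold the highest Sgk1, Fkbp5 and Zbtb16 of their group, 2 members were called within Q and 9 over the genotypes, Zbtb16 being added by construction. In the genotype and interaction contrasts no member was called in any of the 82 fits of the alternatives or the 150 that left out 1 library, but the sign of an uncalled log2 fold change turned in 71 of 820 and 130 of 1500 member values. In the sex contrasts it turned in 7 of 300 and 10 of 560. Replicate numbers did not pair libraries: the correlation of same-numbered libraries ran from -0.291 to 0.188. With a replicate block the members called were 0 in every genotype contrast and 8 between the sexes over the genotypes, and 4 within R, where Nr3c2 had an adjusted p of 0.0503. Over all genes, genotype contrasts gave 0 calls in the edgeR test of all 28 libraries. In genotype or interaction contrasts, genes were called in 4 of the 150 fits that left out 1 library and in 7 of the 82 fits of the alternatives. DESeq2's Wald test gave 3 in male Q against WT and 1 each in female Q against WT, male Q against R and Q against WT over both sexes, none of them a member. Correlations by Pearson's r that passed only in an alternative were Fkbp5 with Zbtb16 at 0.99 in females alone and 0.66 without male Q replicate 4 and female Q replicate 5, Sgk1 with Tsc22d3 at 0.65 without those libraries, and Scnn1b with Scnn1g at 0.87 in females alone. By rank, the 3 pairs of Sgk1, Fkbp5 and Zbtb16 passed in every alternative but males alone. The cause of these shifts was not tested. Depth limits Zbtb16 most, since its counts began at 21.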
